A study of Mus musculus with 6 samples.

Results

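The 10 genes described here encode the phototransduction cascade of cones: the visual pigments Opn1sw and Opn1mw, the transducin subunits Gnat2, Gnb3 and Gngt2, the phosphodiesterase subunits Pde6c and Pde6h, the channel subunits Cnga3 and Cngb3, and the arrestin Arr3. They were chosen by symbol, and all 10 were found among the 19124 gene symbols of the deposited table, each taken as its longest transcript entry. The libraries hold polyadenylated RNA of retinal cells sorted for CD31, a surface protein of endothelium, from C57BL/6 mouse pups at postnatal day 7. The 3 KO pups carried the genotype Pdgf{beta}CreERT2pos Rnf20p/p, with a tamoxifen-inducible recombinase driven in endothelium, and the 3 Ctrl pups the genotype Pdgf{beta}CreERT2neg Rnf20p/p, with the same Rnf20 allele and no recombinase. Pups of both groups were given 75 µg of Z-4-HO-Tamoxifen a day from day 1 to day 4, and each library came from a different pup. The study set KO against Ctrl to ask how the level of Rnf20, an E3 ubiquitin ligase for histone H2B, bears on sprouting vessels.

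In a cone, light turns the pigment into an activator of the G protein transducin, whose alpha subunit releases the phosphodiesterase from its inhibitory subunit. The phosphodiesterase breaks down cyclic GMP, the cation channel held open by cyclic GMP closes, and arrestin then shuts the pigment off. Rods use the same steps with their own paralogs, and in the mouse the S opsin Opn1sw is made earlier in development than the M opsin Opn1mw. Cones are neurons, and the sort was for a marker of endothelium.

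Each library held between 14581701 and 30692948 counts. Rnf20 stood at 39.1, 31.0 and 31.7 CPM (counts relative to the TMM-scaled library size) in KO 1, 2 and 3, against 47.9, 57.1 and 56.8 CPM in Ctrl 1, 2 and 3, a difference short of the threshold in edgeR's quasi-likelihood test (Benjamini-Hochberg adjusted p = 0.101, n = 3 each). The 12 endothelial markers summed to 10161, 13351 and 10343 CPM in KO 1, 2 and 3 and to 3282, 4437 and 4994 CPM in Ctrl 1, 2 and 3, with 7 of 12 higher by the same test, 0 lower and none of them at 0 counts in any library. The 7 were Cldn5, Egfl7, Ramp2, Erg, Esam, Tie1 and Cdh5, with log2 fold changes from 1.10 to 1.79. Their part in the cone gene results was not tested. The groups also differed in sex-linked genes. Xist, transcribed from the inactive X chromosome of females, had 14, 111 and 1 counts in KO 1, 2 and 3, against 3174, 5058 and 3178 in Ctrl 1, 2 and 3. The Y-linked Kdm5d had 428, 163 and 244 counts in KO 1, 2 and 3 and 0 in each Ctrl library. By these genes genotype and sex cannot be told apart in any comparison between the groups. Among markers of other cells, 2 of 7 ganglion cell genes (Sncg and Rbpms, log2 fold changes 2.72 and 1.77), 1 of 6 Müller glia genes (Glul, 1.34) and 1 of 6 mural genes (Des, 2.10) were higher with 0 lower, and 0 of 4 tested amacrine and horizontal cell genes passed (7 such genes were listed). Over all genes tested, 5.85% were called higher and 4.44% lower. Estimates were negative for 2 of 7 ganglion cell genes, among them Pou4f1 (−1.28, not called). They were negative for 4 of 6 Müller glia genes (median −0.23) and 0 of 6 mural genes. Of 10 microglial genes 0 passed edgeR's test and 0 had an unadjusted p below 0.05, but the libraries stood far apart. Their sum was 96.6, 11855 and 2194 CPM in KO 1, 2 and 3, against 1109, 1397 and 172 CPM in Ctrl 1, 2 and 3, with none of the 10 at 0 counts, all 10 estimates positive and a median log2 fold change of 2.19. In bulk samples fewer cells of a type and less RNA per cell cannot be told apart.

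All 10 cone genes passed the filter on low counts, and all 10 had a negative estimate for KO over Ctrl, although with libraries scaled to rod counterparts Gngt2 and Gnb3 were at 0.78 and 0.32. Cngb3 alone passed the test across genes with all libraries. That is 1 of 10 lower and 0 of 10 higher, where 4.44% of all 16217 genes tested were called lower and 5.85% higher by the same rule. The median log2 fold change over the 10 genes was −1.52, against 0.03 over all genes tested. Every KO library lay below every Ctrl library for 4 of the 10, Opn1sw, Gnat2, Arr3 and Cngb3, and above for 0 of 10, while 18.9% of all genes tested were separated downward and 19% upward. The other 6 overlapped between the groups. The 10 genes together summed to 432, 946 and 2121 CPM in KO 1, 2 and 3, and to 3066, 1788 and 1904 CPM in Ctrl 1, 2 and 3. KO 3 thus lay inside the Ctrl range, while KO 1 and KO 2 lay below it.

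**Figure D1:**
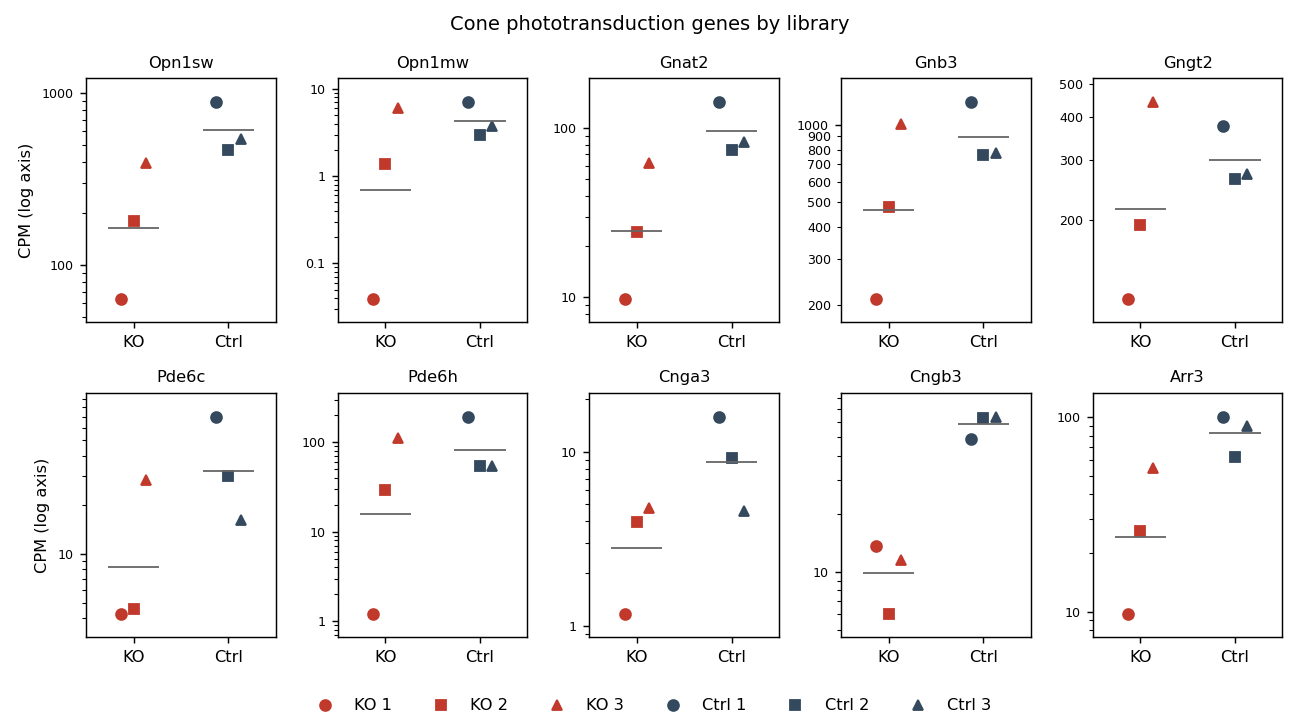
CPM of the 10 cone genes in each library, on a log axis of its own for each gene, with KO left of Ctrl. Symbols mark the replicate number and horizontal bars the geometric mean of a group. KO 1 was the lowest library for 9 genes, and for Cngb3 all KO libraries sat between 6.05 and 13.6 CPM, below the lowest Ctrl library at 49.0 CPM.

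**Figure D2:**
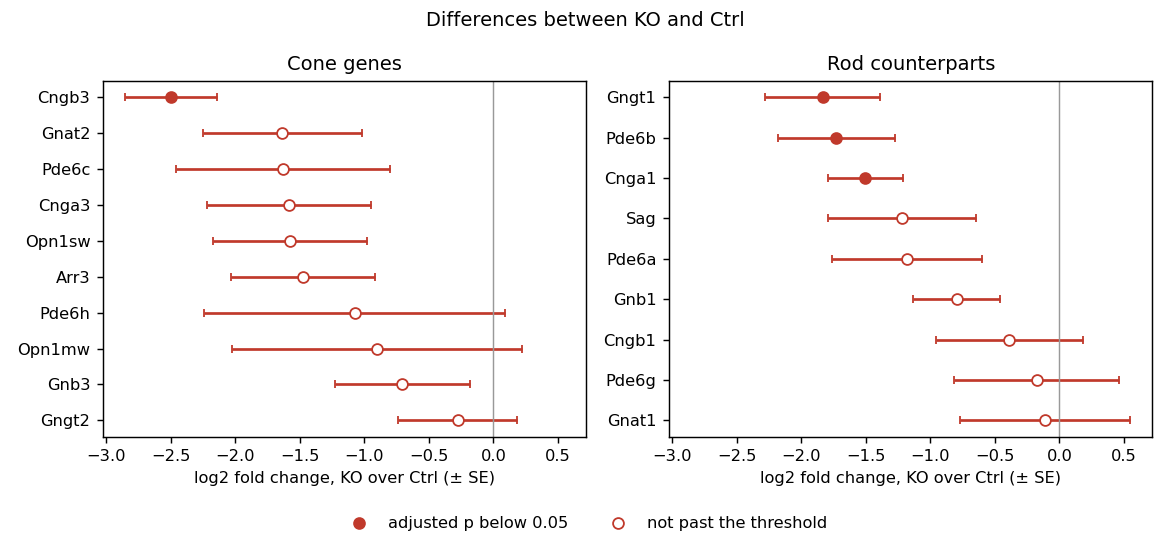
Fold change (log2) between KO and Ctrl, positive where KO is higher, for the cone genes and their rod counterparts, from edgeR's fit over all genes. Bars are standard errors and filled points passed an adjusted p of 0.05. All estimates drawn lie below 0, with 1 cone gene and 3 rod genes filled. When libraries are scaled to the rod counterparts other than Gnb1, the genes Gngt2, Gnb3 and Gnb1 lie above 0. So do Gnat1, Pde6g and Cngb1, but these belong to the scaling set, so their signs there are not independent of the scale.

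The S pigment was the more deeply covered of the 2 opsins. Opn1sw (chromosome 6, 29376671 to 29380513, minus strand, GRCm38.p6) had 63.6, 181 and 391.9 CPM in KO 1, 2 and 3, against 888, 465 and 541 CPM in Ctrl 1, 2 and 3. Every KO library was below every Ctrl library, but KO libraries differed from each other by 6.16-fold, against 1.91-fold among Ctrl libraries. The log2 fold change of −1.57 (SE 0.598) missed the threshold in edgeR's quasi-likelihood test (adjusted p = 0.122). Opn1mw, the M pigment on the X chromosome (74127466 to 74150756, plus strand), was scarce, with 1, 35 and 174 counts in KO 1, 2 and 3 and 207, 72 and 58 counts in Ctrl 1, 2 and 3. As levels these were 0.039, 1.39 and 5.96 CPM in KO and 7.07, 2.97 and 3.78 CPM in Ctrl. KO 3 was higher than 2 of the 3 Ctrl libraries, and the log2 fold change of −0.90 (SE 1.12, adjusted p = 0.623 by edgeR's quasi-likelihood test) rested on very few counts in KO 1. It was −2.59 without KO 3, −0.27 without KO 1 and −0.45 without Ctrl 1.

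The transducin genes had unlike estimates. Gnat2, the alpha subunit that carries the signal (chromosome 3, 108086788 to 108101432, plus strand), had 9.80, 24.3 and 62.5 CPM in KO 1, 2 and 3, against 143, 74.2 and 83.5 CPM in Ctrl 1, 2 and 3. The entry used, of 8364 bases, is shorter than this annotated span. The groups did not overlap, and the log2 fold change was −1.64 (SE 0.615) with an adjusted p of 0.119 by edgeR's quasi-likelihood test. Gnb3, the cone beta subunit, which ON bipolar cells also use (chromosome 6, 124834240 to 124840275, minus strand), had 211, 476 and 1007 CPM in KO 1, 2 and 3, against 1223, 764 and 775 CPM in Ctrl 1, 2 and 3. KO 3 exceeded 2 Ctrl libraries, and the estimate of −0.71 (SE 0.521) did not pass (adjusted p = 0.394, edgeR). Markers of bipolar cells, summed over 10 genes, stood at 393, 464 and 713 CPM in KO 1, 2 and 3 and at 973, 814 and 811 CPM in Ctrl 1, 2 and 3, with 2 of 10 lower (Vsx1, −1.38, and Trpm1, −1.20) and 0 higher, and none of the 10 was at 0 counts in any library. Over all genes tested, 4.44% were called lower and 5.85% higher. Of the 10 bipolar estimates 8 were negative (median −0.81), while Gng13 (0.49) and Pcp2 (0.37) were positive and not called. Grm6 was at −0.30 and was not called. The part of bipolar cells in the Gnb3 result was not tested.

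Gngt2, the cone gamma subunit (chromosome 11, 95841772 to 95845734, plus strand), had 118, 193 and 442 CPM in KO 1, 2 and 3, against 377, 263 and 272 CPM in Ctrl 1, 2 and 3. KO 3 was the highest library of all, and the log2 fold change of −0.28 (SE 0.461) was the nearest to 0 of the 10 (adjusted p = 0.718, edgeR). Its span overlaps Abi3, a gene of microglia and platelets on the other strand, by 705 bases, and these libraries were not read by strand. The entry used is shorter than this annotated span, so its own overlap with Abi3 may be smaller. Reads that fell in the 3436-base entry used but outside the shortest entry of 2486 bases were 5.37%, 4.799% and 2.15% of its counts in KO 1, 2 and 3, and 0.516%, 1.36% and 1.24% in Ctrl 1, 2 and 3. Abi3 itself had 29.5, 99.4 and 44.9 CPM in KO 1, 2 and 3 and 11.7, 27.6 and 15.4 CPM in Ctrl 1, 2 and 3. KO 2, the library with the highest microglial sum, also had the highest Abi3 level. The part of Abi3 in the Gngt2 counts was not tested.

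The phosphodiesterase genes both overlapped between the groups. Pde6c, the catalytic subunit (chromosome 19, 38132781 to 38183955, plus strand), had 4.27, 4.58 and 28.6 CPM in KO 1, 2 and 3, against 69.7, 30.0 and 16.2 CPM in Ctrl 1, 2 and 3. KO 3 lay within the Ctrl range and the other KO libraries below it, and the log2 fold change of −1.63 (SE 0.832) did not pass (adjusted p = 0.223, edgeR). It was −3.08 without KO 3 and −0.89 without Ctrl 1. Pde6h, the inhibitory subunit (chromosome 6, 136952218 to 136963485, plus strand), had 31, 742 and 3255 counts in KO 1, 2 and 3, or 1.22, 29.6 and 112 CPM. Its Ctrl libraries 1, 2 and 3 had 192, 53.8 and 53.9 CPM. The KO libraries spanned 91.8-fold, against 3.57-fold among the Ctrl libraries, and the log2 fold change of −1.07 (SE 1.16) did not pass (adjusted p = 0.565, edgeR). It was −2.61 without KO 3, −0.45 without KO 1 and −0.18 without Ctrl 1.

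Arr3, the arrestin that shuts off cone pigment, lies on the X chromosome (100605480 to 100618493, plus strand). It had 9.76, 26.1 and 55.0 CPM in KO 1, 2 and 3, against 100, 62.2 and 89.9 CPM in Ctrl 1, 2 and 3. Groups did not overlap, and the log2 fold change was −1.47 (SE 0.555), with an adjusted p of 0.120 by edgeR's quasi-likelihood test. Profiles of Arr3, Opn1sw and Gnat2 over the 6 libraries were close to each other: after each gene's log2 CPM was centred on its own mean, Opn1sw and Gnat2 differed by a root mean square of 0.09 log2 units, Opn1sw and Arr3 by 0.18, and Arr3 and Gnat2 by 0.22. Gngt2 and Gnb3 differed by 0.28 and formed a second close pair, and the rare Opn1mw and Pde6h differed by 0.41.

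The promoters of the 3 genes with the closest profiles are shown because these genes ran most alike over the libraries, and CRX, the homeodomain factor of photoreceptors, is known to bind sites with a TAATC core. Each sequence is the 250 bases before the transcript start in RefSeq (GRCm38.p6), written along the gene's own strand in lower case, with TAATC or its reverse complement GATTA in capitals.
Opn1sw promoter (chr6:29380514-29380763, minus strand): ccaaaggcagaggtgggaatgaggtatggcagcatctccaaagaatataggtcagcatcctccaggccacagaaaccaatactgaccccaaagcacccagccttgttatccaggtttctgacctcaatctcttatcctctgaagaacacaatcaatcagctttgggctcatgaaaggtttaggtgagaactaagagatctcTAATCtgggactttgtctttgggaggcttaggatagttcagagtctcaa
Arr3 promoter (chrX:100605247-100605496, plus strand): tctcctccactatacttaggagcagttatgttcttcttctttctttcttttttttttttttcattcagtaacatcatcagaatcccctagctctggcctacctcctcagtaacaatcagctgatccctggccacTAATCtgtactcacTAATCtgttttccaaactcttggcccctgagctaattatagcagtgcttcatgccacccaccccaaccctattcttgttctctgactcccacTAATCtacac
Gnat2 promoter (chr3:108092816-108093065, plus strand): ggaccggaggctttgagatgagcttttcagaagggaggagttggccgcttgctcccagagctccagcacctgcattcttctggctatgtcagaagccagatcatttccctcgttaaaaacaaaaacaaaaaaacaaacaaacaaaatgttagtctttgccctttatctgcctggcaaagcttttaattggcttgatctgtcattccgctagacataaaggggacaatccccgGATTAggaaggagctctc
Arr3 held the core 3 times, at 116, 102 and 10 bases before the start, counted to the first base of the match. Opn1sw held it at 49 bases and Gnat2, on the other strand, at 18 bases. The match in Gnat2 extended to the 6 letters TAATCC. RefSeq windows were matched for 6 of the 10 genes, in 7 windows, of which 3 held TAATC on either strand and 1 held TAATCC. Over all 32851 windows of this length, 19.8% held TAATC, 6.25% held TAATCC, and 0.554% held TAATC at least 3 times. These matches are descriptions of the letters and not of binding.

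The channel subunits had unlike estimates, and the difference between the 2 genes was not tested. Cnga3, the pore-forming alpha subunit (chromosome 1, 37218241 to 37263384, plus strand), had 30, 99 and 139 counts in KO 1, 2 and 3 and 464, 222 and 70 in Ctrl 1, 2 and 3, or 1.18, 3.94 and 4.77 CPM in KO and 15.9, 9.16 and 4.56 CPM in Ctrl. Ctrl 3 lay between KO 2 and KO 3, and the log2 fold change of −1.58 (SE 0.633) did not pass (adjusted p = 0.138, edgeR). Cngb3, the beta subunit that assembles with it (chromosome 4, 19280850 to 19510623, plus strand), had 13.6, 6.05 and 11.5 CPM in KO 1, 2 and 3, against 49.0, 63.3 and 63.9 CPM in Ctrl 1, 2 and 3. Its mean was 10.4 ± 3.90 CPM in KO and 58.7 ± 8.42 CPM in Ctrl (SD, n = 3 each), a Ctrl level 5.65 times that of KO. The log2 fold change of −2.50 (SE 0.356) was past the threshold in edgeR's quasi-likelihood test (adjusted p = 0.0211).

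Cngb3 was the least variable of the 10 genes within each group. Its KO libraries spanned 2.25-fold and its Ctrl libraries 1.30-fold, while the KO spans of the other 9 genes ran from 3.76-fold for Gngt2 to 152-fold for Opn1mw. KO 2, not KO 1, was its lowest library, and KO 3 reached 0.18 times the Ctrl median. For the other 9 genes KO 3 reached between 0.52 times the Ctrl median for Cnga3 and 2.07 times for Pde6h. No other member came closer to the Cngb3 profile than a root mean square difference of 1.01 log2 units, for Arr3. The 3 genes outside the cascade with the nearest profiles, among those of at least 5 CPM on average, were Zfp763 (0.12 log2 units, over 6 libraries), Ppp1r42 (0.19) and Gm6712 (0.19). Zfp763 had 12.7, 6.21 and 11.96 CPM in KO 1, 2 and 3, against 41.7, 53.2 and 57.2 CPM in Ctrl 1, 2 and 3. The shape was not particular to Cngb3 among photoreceptor genes. KO 2 was also the lowest library for Cnga1, Gngt1, Pdc and Rorb, described below. For these, KO 3 reached 0.42, 0.38, 0.30 and 0.29 times the Ctrl median. Their transcript GC contents were low too, at 42.1%, 36.4%, 39.8% and 42.0%.

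Several limits touch the Cngb3 value. Its entry is given a length of 229773 bases, of which exons of the GENCODE M21 annotation take 4708 bases. Reads in introns may have entered its counts, which was not settled. With offsets for transcript GC content its log2 fold change was −1.67 and still passed (adjusted p = 0.0224, edgeR). Leaving out KO 2, Ctrl 1, Ctrl 2 or Ctrl 3 gave −2.20, −2.62, −2.44 and −2.44 with adjusted p of 0.0859, 0.0801, 0.112 and 0.107 in edgeR's quasi-likelihood test, fits in which 0 genes of the whole table passed while 3434 to 4005 had an unadjusted p below 0.05. With libraries scaled to equal rod counterpart counts it was −1.005 and did not pass (adjusted p = 0.251, edgeR).

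Fold changes of the 10 genes ran with the base composition of their transcripts and as closely with the length given for the entry. Cngb3 had the lowest GC content, 39.9%, and the lowest log2 fold change, while Gnb3 had the highest GC content, 56.4%, and the estimate second nearest to 0. Across the 10 genes the Spearman correlation between GC content and log2 fold change was 0.62, across 45 listed photoreceptor genes it was 0.60, and across 15803 tested genes with a GC value it was 0.40. With entry length the Spearman correlations were −0.62 across the 10 genes, −0.25 across the 45 and −0.21 across all. These are descriptions across genes, which share libraries and are not independent replicates. With GC offsets the estimates of Gnb3 and Cnga3 were −1.16 and −1.81 (adjusted p = 0.0860 and 0.0668, edgeR), those of Opn1sw, Gnat2 and Arr3 were −1.55, −1.44 and −1.38 (adjusted p = 0.106, 0.151 and 0.120, edgeR), and Gngt2 was at −0.44. In that fit Cngb3 was the 1 member called, where 5.94% of genes were called lower and 6.43% higher.

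**Figure D3:**
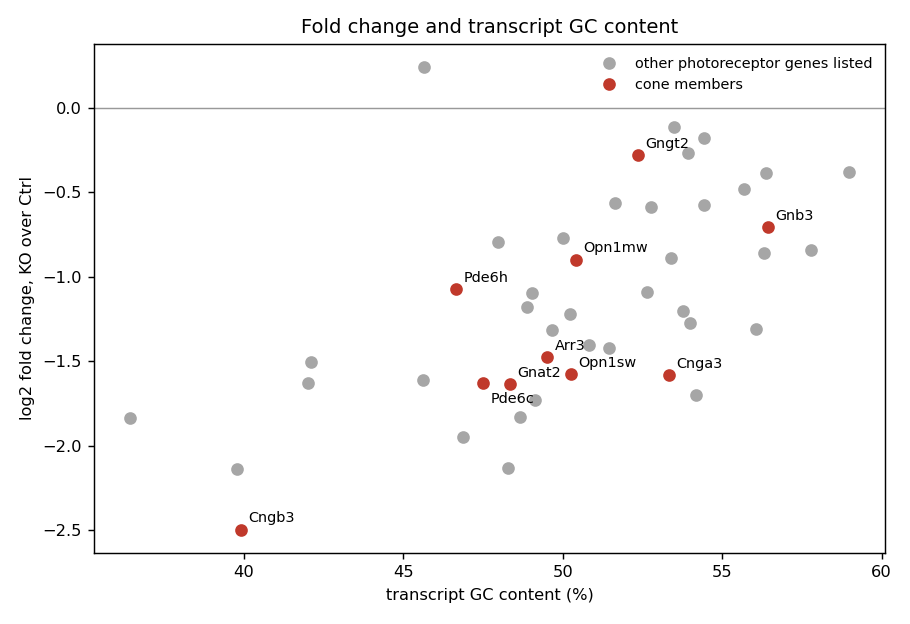
Log2 fold change of KO over Ctrl, without GC offsets, against transcript GC content in percent for the 10 cone genes (named) and 35 other photoreceptor genes of the lists used here. Cngb3 lies at 39.9% and −2.50, and Gngt2 at 52.4% and −0.28.

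Rod genes, which serve the same steps in the other photoreceptor, were set beside the cone genes. The 9 rod counterparts summed to 4545, 7290 and 16362 CPM in KO 1, 2 and 3 and to 25754, 14794 and 17036 CPM in Ctrl 1, 2 and 3. Gnb1 gave 1861, 1795 and 3792 CPM of this in KO 1, 2 and 3. In Ctrl 1, 2 and 3 it gave 4442.5, 4031 and 4462 CPM. It was left out of the scaling to rod counterparts, and neither its level nor its ratio with Gnb3 is read here as rod-only. Against 4.44% of all genes tested called lower and 5.85% higher, 3 of the 9 were lower and 0 higher. These were Gngt1, the rod gamma subunit (log2 fold change −1.84), Pde6b, a rod catalytic subunit (−1.73), and Cnga1, the rod channel alpha subunit (−1.50), with adjusted p of 0.0404, 0.0496 and 0.0241 by edgeR's quasi-likelihood test. With GC offsets these were at −0.57, −1.60 and −0.85, and none of the 3 passed. Over 14 alternatives Gngt1 passed in 7, Pde6b in 6 and Cnga1 in 8. Pde6b did not pass with DESeq2 size factors (adjusted p = 0.0535, edgeR) or without the filter on low counts (adjusted p = 0.0519, edgeR). The rod median was −1.18 and the cone median −1.52, a difference that was not tested. The rod channel beta subunit Cngb1, paralog of Cngb3, had 160, 398 and 926 CPM in KO 1, 2 and 3 and 878, 518 and 547 CPM in Ctrl 1, 2 and 3, with a log2 fold change of −0.39 (SE 0.567, adjusted p = 0.679, edgeR). Sag, Pde6a and Gnb1 were at −1.22, −1.18 and −0.80 and did not pass (adjusted p = 0.190, 0.207 and 0.158, edgeR). Gnat1 and Pde6g are given with the ratios below.

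To set cone genes against their rod counterparts without library scaling, the ratio of the counts of 8 pairs was taken within each library. Gene length cancels between groups but not between pairs, so only groups are compared. In 2 of 8 pairs every KO library lay below every Ctrl library, in 0 of 8 above, and 7 of the 8 mean differences were negative. Without Ctrl 1, 4 of 8 were negative, with Gnb3 to Gnb1 at 0.14, Pde6c to Pde6b at 0.18 and Cnga3 to Cnga1 at 0.31. Without KO 1, 5 of 8 were negative, with Gnb3 to Gnb1 at 0.35 and Cnga3 to Cnga1 at 0.61, and Pde6h to Pde6g was at −0.63. Gnat2 was at 23.2%, 15.6% and 15.1% of Gnat1, the rod alpha subunit, in KO 1, 2 and 3, against 72.4%, 30.8% and 37.2% in Ctrl 1, 2 and 3. The KO ratios lay within 15.1% to 23.2% although the Gnat2 level itself spanned 6.38-fold between these libraries. Gnat1 itself had 42.3, 156 and 415 CPM in KO 1, 2 and 3, a 9.83-fold span. In Ctrl 1, 2 and 3 it had 197, 241 and 224 CPM, and its log2 fold change was −0.11 (adjusted p = 0.928, edgeR). Pde6h was at 0.3596%, 3.49% and 4.41% of Pde6g, the rod inhibitory subunit, in KO 1, 2 and 3, against 9.99%, 4.99% and 4.48% in Ctrl 1, 2 and 3. Its highest KO ratio and lowest Ctrl ratio, 4.41% and 4.48%, were close. Pde6g itself was at −0.18 (adjusted p = 0.876, edgeR). Gnat1 and Pde6g thus had the rod estimates nearest to 0. The pairs of the called rod genes Gngt1, Pde6b and Cnga1 were not separated.

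The differences of Gnat2 to Gnat1 and of Pde6h to Pde6g, KO minus Ctrl on the log2 scale, were −1.31 and −1.77. Each had an exact two-sided permutation p of 0.1, the smallest that 3 against 3 allows, and 0.4 after Benjamini-Hochberg adjustment over the 8 pairs, so neither passed. As background, 0.888% of all tested genes lay lower in every KO library as a ratio to Gnat1 and 1.48% as a ratio to Pde6g. Against the other counterparts the share was 0.253% for Sag, 1.53% for Cngb1, 0.302% for Cnga1, 2.31% for Gnb1, 0.074% for Gngt1 and 0.105% for Pde6b. Without Ctrl 1, 4 of 8 pairs lay lower in every KO library, Arr3 to Sag and Cngb3 to Cngb1 being the added pairs, and 1 of 8 lay higher. Without KO 1, 3 of 8 lay lower, with Cngb3 to Cngb1 added, and 1 of 8 higher. A group of 2 libraries separates more easily than a group of 3. No share over all genes was taken for these smaller sets, nor for ratios higher in KO. These added pairs are therefore not read as a result about the cone genes.

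**Figure D4:**
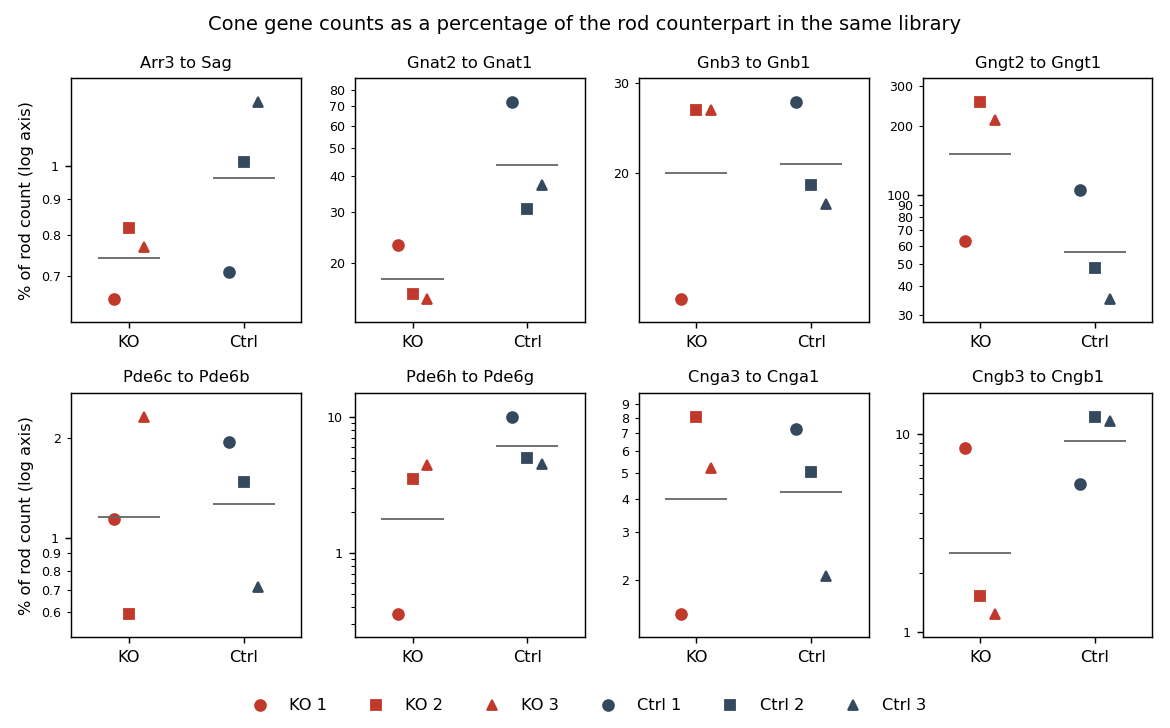
Count of 8 cone genes as a percentage of the count of the rod counterpart in the same library, on a log axis of its own for each pair, with KO left of Ctrl. Symbols mark the replicate number and bars the geometric mean. Gnat2 to Gnat1 runs from 15.1% to 23.2% in KO and from 30.8% to 72.4% in Ctrl.

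The other pairs overlapped between the groups. Cngb3 was at 8.48%, 1.52% and 1.24% of Cngb1 in KO 1, 2 and 3 and at 5.59%, 12.2% and 11.7% in Ctrl 1, 2 and 3, where KO 1 lay above Ctrl 1 (difference −1.88, exact permutation p = 0.2). Arr3 was at 0.651%, 0.820% and 0.770% of the rod arrestin Sag in KO 1, 2 and 3, against 0.711%, 1.01% and 1.23% in Ctrl 1, 2 and 3 (difference −0.37, exact permutation p = 0.3). Gngt2 to Gngt1 was the pair with a positive difference, 1.42 on the log2 scale (exact permutation p = 0.2), with 62.9%, 255% and 212% in KO 1, 2 and 3 and 105%, 48.1% and 35.2% in Ctrl 1, 2 and 3. Differences of the pairs Gnb3 to Gnb1, Pde6c to Pde6b and Cnga3 to Cnga1 lay between −0.12 and −0.06 with exact permutation p from 0.8 to 1.

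Genes that work around the cascade were read from lists of its recovery and shared machinery. Of 20 such genes 5 were lower in KO and 0 higher by edgeR's quasi-likelihood test, where 4.44% of all genes were lower, and the median log2 fold change was −0.99. Kcnv2, a potassium channel subunit of photoreceptor inner segments, had 43.2, 76.1 and 86.2 CPM in KO 1, 2 and 3, against 303, 300 and 300 CPM in Ctrl 1, 2 and 3 (log2 fold change −2.14). Pdc, the transducin-binding phosducin, had 984, 438 and 1144 CPM in KO 1, 2 and 3, against 4134, 3318 and 3850 CPM in Ctrl 1, 2 and 3 (−2.14). Rgs9 and its anchor Rgs9bp, which speed the shutoff of transducin, were at −1.42 and −1.83, and Abca4, the retinoid transporter of outer segments, at −1.40. Guca1a, an activator of guanylate cyclase (−0.48), and Rcvrn, recoverin (−0.27), did not pass, and Slc24a2, the cone sodium-calcium exchanger, had the only positive estimate of the 20 (0.24, adjusted p = 0.655, edgeR).

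Cone genes outside the cascade and transcription factors of photoreceptors were read in the same way, where 4.44% of all genes were called lower and 5.85% higher. Of 6 other cone genes, 1 was lower and 0 higher, with a median of −1.44. This was Thrb, the thyroid hormone receptor that directs M opsin expression, at 9.6, 21.3 and 27.9 CPM in KO 1, 2 and 3, against 68.9, 72.5 and 86.1 CPM in Ctrl 1, 2 and 3 (log2 fold change −1.95, adjusted p = 0.0265, edgeR). Its partner Rxrg was at −1.70 and did not pass (adjusted p = 0.108, edgeR). Of 7 photoreceptor transcription factors 3 were lower and 0 higher, with a median of −1.29. Rorb, a nuclear receptor needed for photoreceptor development, was at −2.03, Otx2, which sets photoreceptor fate, at −1.48, and Prdm1, which keeps precursors from a bipolar fate, at −1.28. Crx, the factor named above, was at −1.42 and did not pass (adjusted p = 0.0675, edgeR).

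The count of members called depended on the tool. DESeq2 on the same counts called 4 of the 10 lower, Opn1sw, Arr3, Gnat2 and Cngb3, and 0 higher, with 9.49% of all genes called lower and 12.6% higher. Limma-voom called Cngb3 alone, with 5.69% of genes lower and 6.09% higher. Without KO 1 edgeR also called Cngb3 alone, with 14.5% of genes lower and 15.2% higher. With libraries scaled to rod counterparts it called 0 of 10, with 0.037% of genes lower and 23.3% higher, and 0 of the 10 had an unadjusted p below 0.05. In the authors' deposited table, Cngb3 had a log2 fold change of −2.42 and an adjusted p of 1.95e-08. Opn1sw and Gnat2 had adjusted p of 0.0450 and 0.0423 in the authors' deposited table, and Arr3 had 0.0539, where 8.2% of entries used here were lower at 0.05.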

How the data were processed

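RNA of CD31-sorted retinal cells from 6 pups was analysed, 3 KO and 3 Ctrl. Per the labels' protocols, full-length cDNA was amplified from low input, tagmented and read as single ends, a preparation that does not mark strand. Tools listed in the submitters' processing notes, without roles, are STAR, Trimmomatic 0.36, deepTools, edgeR and DESeq2, with the build mm10. Which tool counted, and on which annotation, is not given in the sources used here. Per the file headers, the authors deposited raw counts, normalized counts (a signal, the count divided by a library factor), RPKM, a log2 fold change with its error, a Wald score and p-values. The third Ctrl count column has an odd name and was taken as Ctrl 3 since the other Ctrl columns match by name. Of 23 genes of over 5000 counts nested in an intron, 20 had a host entry whose total was at least 95% of their own total. Hosts would reach this if intronic reads were counted, but could also reach it by reads of their own exons. Whether intronic reads were counted is therefore not settled. RPKM was not used.

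The longest entry of each symbol was tested with edgeR 4.0.16 (R 4.3.3) by its quasi-likelihood test, with TMM, filterByExpr, no covariate and Benjamini-Hochberg adjustment over 16217 genes at 0.05, tested on simulated data first. CPM are TMM-scaled. SE is the fold change divided by the root of F. Ratios used a pseudocount of 0.5 and exact permutation tests (scipy 1.17.1). Alternatives were DESeq2 1.42.0, limma-voom (limma 3.58.1), other scalings, no filter, another entry, GC offsets from GENCODE M21 transcripts, a replicate block and each library left out. 1 gene of the rod list, and the ratios and sums that need it, are not reported here. All members, their other rod counterparts, Rnf20, overlapping genes, listed genes past the threshold (sex-linked ones aside) and the 3 nearest profiles of called members were named by rule. Besides Abi3, the overlapping genes with counts were Calu (5 bases of the Opn1sw span) and Gm12500 (1224 bases of the Gnat2 span). Overlaps were measured on annotated spans. The entries used for Gnat2 and Gngt2 are shorter than their spans and may overlap less or not at all. Others (Kdm5d, Crx, Rxrg, Guca1a, Rcvrn and Slc24a2 among them) were named after their values were seen. Members and lists were chosen with earlier results of these data known.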

Additional observations from a re-analysis of the deposited data

How the results depend on the processing

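KO and Ctrl differed in 1668 genes (56.8% of them higher) and 1 cone gene. DESeq2 gave 3556 genes and 4 cone genes, where 9.49% of all genes were called lower. The replicate block gave 1 gene and 0 cone genes (3407 genes at an unadjusted p below 0.05). The labels give shared replicate numbers and do not say whether these pair the pups. Deviations of same-numbered libraries from their group means correlated at −0.39, 0.07 and −0.26, and those of unlike numbers reached 0.41. Deviations within a group of 3 depend on each other, so these values cannot decide whether pups were paired. Scaling to rod counterparts gave 3780 genes, 99.8% of them higher, and 0 cone genes, and moved the median of all genes to 1.48. Scaling to endothelial markers gave 6979 genes, 1.19% of them higher, and 7 cone genes, with the median of all genes at −1.16. In that fit 6896 of all 16217 genes tested were called lower. Leaving out 1 library gave 0 to 4927 genes, 0 to 2 cone genes and 2 to 4 pairs lower in every KO library, against 2 with all libraries. Fewer libraries separate more easily, and no share over all genes was taken for these pair counts. The 2 cone genes were called without KO 3, where 367 of 16550 genes were called lower. With fewer libraries the spread is measured less well, and the cause of the other shifts was not tested.

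Of 150 alternative estimates of cone genes 3 changed sign: with rod scaling Gngt2 was 0.78 and Gnb3 0.32, and without KO 1 Gngt2 was 0.12. The rod counterpart Gnb1 was 0.43 with rod scaling. Leaving out 1 library moved Gngt2 between −0.91 and 0.12, Gnat1 between −1.08 and 0.43, Pde6g between −1.17 and 0.33, and Cngb1 between −1.14 and 0.091, the lowest without KO 3 and the highest without KO 1. Gnat1 was 0.09 and Pde6g 0.07 without KO 2, and Pde6g was 0.12 without Ctrl 1. Cngb3 kept its sign in all 15 alternatives (−3.63 to −1.005) and passed in 9. Opn1mw ran from −2.59 to −0.27, Pde6h from −2.61 to −0.18 and Pde6c from −3.08 to −0.89 with 1 library left out. Of the 8 ratios, Pde6c to Pde6b was 0.36 without KO 2 and Cnga3 to Cnga1 0.044 without Ctrl 2. Counts of 1 to 35 limit Opn1mw, Cnga3 and Pde6h in KO 1 and Opn1mw in KO 2.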
